A study of Mus musculus with 6 samples.

Results

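Mural cells are the cells wrapped around the endothelial tube of a blood vessel, and they were sought here among single nuclei of mouse striatum. A nucleus was taken as mural when the values of 4 marker genes (Pdgfrb, Notch3, Abcc9 and Rgs5) summed to at least 4. It also had to stay within limits on markers of other cells: Flt1, Cldn5 and Pecam1 of endothelial cells summed to at most 3, Dcn and Col1a2 of fibroblasts to at most 3, Mog and Mag of oligodendrocytes to at most 1, and Rgs9 and Pde10a of striatal projection neurons to at most 5. This rule was met by 184 of 48834 nuclei (0.377%). The nuclei were thus chosen by the measured values of these genes, so the levels of these genes, and of any gene compared between these nuclei and the others, are given as description without a test.

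The study profiled dissected, flash-frozen striatum of mice by single-nucleus RNA sequencing in 10x Genomics droplet libraries. It compared 3 wild-type libraries with 3 libraries of mice heterozygous for Celsr3, which encodes a large cadherin of the adhesion G protein-coupled receptor class and guides axons and neurites. The study's title links loss of Celsr3 to tic-related behaviour and to dopamine signalling in the striatum. All 6 libraries, labelled as biological replicates, were sequenced on 1 lane, and the sex, age, strain and allele of the mice are not given in the sources used here. P-values therefore measure the spread between these libraries.

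Pericytes sit in the basement membrane of capillaries, where they are held by platelet-derived growth factor from the endothelium acting on the receptor Pdgfrb. They regulate capillary flow, partly through an ATP-sensitive potassium channel built from Kcnj8 and Abcc9, and take part in the blood-brain barrier. Vascular smooth muscle cells surround arterioles and carry the contractile proteins Acta2, Tagln and Myh11, while Notch3 is made by both mural types.

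The deposited values are molecule counts corrected for depth and rounded, and the original counts were not used here. The 6 libraries held 7735 to 8875 nuclei each, with a median of 2849 genes detected per nucleus over all nuclei and of 1917 in the 184. In 41.8% of the 184 nuclei more genes stood at 2 than at 1, against 20.1% of all nuclei. The share was 62.1% among the 87 nuclei with a marker sum of at least 6, described below, and 23.7% among the other 97. A value of 2 in such a nucleus can therefore be a single corrected molecule, and a marker sum of 6 can rest on fewer molecules in the 87 than its value says. No doublet caller was run, and the limits on other cells' markers stood in for one. Of the 184 nuclei, 1 shared its barcode with a nucleus of another library, and 0 shared one with another of the 184.

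The nuclei came from every library. The wild-type libraries gave 25, 31 and 26 nuclei and the heterozygous ones 31, 34 and 37. Values by library are listed in this order throughout, replicates 1, 2 and 3 of each genotype. The marker sum was 4 in 74 nuclei, 5 in 23 and at least 6 in 87 (47.3%), with a highest value of 36.

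**Figure D1:**
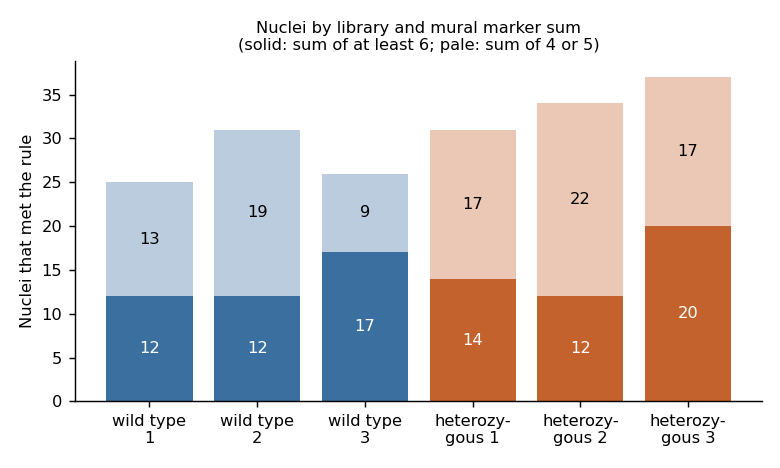
Number of nuclei that met the rule (y axis) in each of the 6 libraries (x axis), split into nuclei with a marker sum of at least 6 (solid) and of 4 or 5 (pale). The counts run from 25 to 37 nuclei, and those with a sum of at least 6 from 12 to 20.

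The label held, as pericytes, for most nuclei with a marker sum of at least 6, and not for most of those with a sum of 4 or 5. In the 87 nuclei with a sum of at least 6, a list of 12 pericyte genes that the rule did not use (among them Kcnj8, Vtn, Higd1b, Atp13a5, Ndufa4l2, Cspg4, Anpep, Cox4i2, Slc6a20a, P2ry14 and Art3) had a median summed value of 36. At least 3 of these genes were detected in 75 of the 87 nuclei (86.2%). In the 97 nuclei with a sum of 4 or 5, the same list had a median of 1, and 12 nuclei (12.4%) had at least 3 of the genes.

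Those 97 nuclei carried astrocyte genes instead. A list of 7 astrocyte genes (Aqp4, Gja1, Slc1a2, Aldh1l1, Slc4a4, Gli3 and Rorb) had a median sum of 81 there and of 8 in the 87, and at least 3 of its genes were detected in 84 of the 97 (86.6%). Slc1a2, the main glutamate transporter of astrocytes, averaged 47.1 per nucleus at a sum of 4 or 5, 10.6 at a sum of at least 6, 8.23 in nuclei of an endothelial rule and 8.21 in all other nuclei. Aqp4, the astrocyte water channel, was detected in 55 of the 97 nuclei and in 9 of the 87. Some of the 87 also had an astrocyte list sum of at least 40. Of these, 7 nuclei had fewer than 3 pericyte genes and 5 had at least 3.

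The rule's 4 genes did not contribute alike to the lower sums. In the 97 nuclei Pdgfrb made up 53.3% and Notch3 38.7% of the marker sum, while Abcc9 made up 3.16% and Rgs5 4.87%. Abcc9, the regulatory subunit of the potassium channel, was detected in 7 of the 97 nuclei and in 61 of the 87. Rgs5, which limits signalling from G protein-coupled receptors in pericytes, was detected in 11 and 59. Gene values also differed beyond these lists: Cemip, a hyaluronan-degrading protein, averaged 1.16 against 0.0115, and Gli2, a transcription factor of hedgehog signalling, 1.29 against 0.115. Htra1, a secreted protease, averaged 2.73 against 0.333. By library, over all nuclei that met the rule, Cemip averaged 0, 0.0645 and 0 in wild-type and 0.419, 1.59 and 1.22 in heterozygous libraries. The higher mean of Cemip at the lower sums thus came almost wholly from heterozygous libraries.

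The threshold of 4 fell within the nuclei that carried astrocyte genes. The 223 nuclei just outside it, with a sum of 3 and within every other limit, had median sums of 1 for the pericyte list and 79 for the astrocyte list. The 74 nuclei just inside it, with a sum of 4, had medians of 1 and 81. Values below are therefore given for the 87 nuclei with a sum of at least 6 first, and for all 184 where they differ. That division was chosen after these values were seen.

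**Figure D2:**
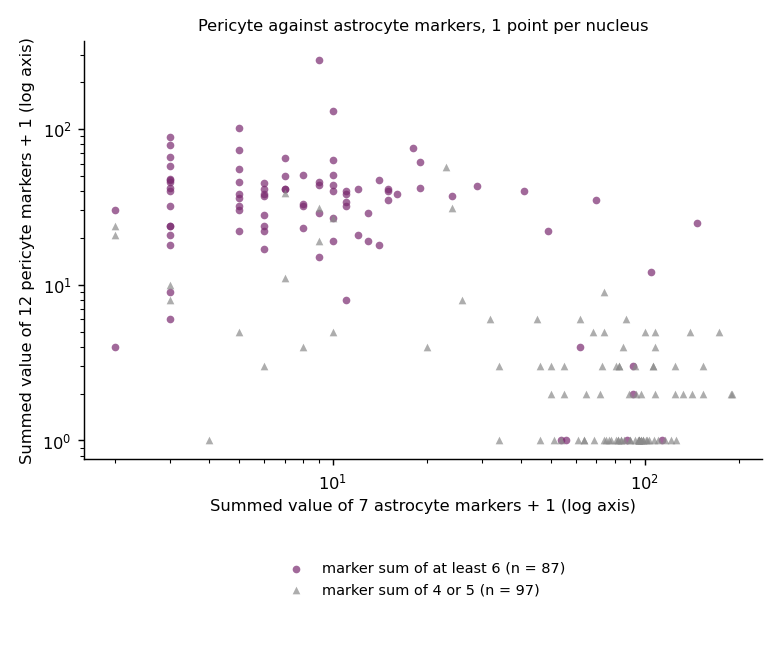
Summed value of the 12 pericyte genes against the summed value of the 7 astrocyte genes, 1 point per nucleus, for nuclei with a marker sum of at least 6 and of 4 or 5. At an astrocyte sum of 40 as the dividing line, 70 of the 87 nuclei with the higher marker sum had at least 3 pericyte genes and a lower astrocyte sum, and 75 of the 97 others had fewer pericyte genes and a higher astrocyte sum.

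Endothelial and fibroblast markers were low in the 87 nuclei, while oligodendrocyte and neuronal transcripts were present. The median sum was 1 for 12 endothelial genes, against 55 in endothelial-rule nuclei and 0 in other nuclei. For 9 fibroblast genes it was 2, against 30.5 in nuclei of a fibroblast rule and 0 in other nuclei. Both lists hold genes that the rule capped, as do the oligodendrocyte and medium spiny neuron lists below. Low sums were thus partly set by the rule. Mbp, a myelin protein of oligodendrocytes, was detected in 85 of the 87 nuclei at a mean of 13.8, and in 84.0% of all other nuclei at a mean of 10.0. The list of 7 oligodendrocyte genes had a median sum of 25 in the 87 nuclei, 12 in the 97, 23 in endothelial-rule nuclei and 8 in other nuclei. A list of 5 neuronal genes had medians of 25, 13, 22 and 54 in the same classes, with at least 3 genes detected in 85 of the 87 nuclei. For 8 genes of medium spiny neurons the medians were 7, 4, 6 and 9, with at least 3 genes in 60 of the 87. The source of these transcripts was not tested.

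The limit on endothelial genes removed more nuclei than it kept. Of 609 nuclei with a marker sum of at least 6, 522 were left out, and 379 of these were over the endothelial limit. For 267 nuclei that was the only limit broken. Of those 267, 149 (55.8%) had at least 3 of the 12 pericyte genes, and their median endothelial list sum was 91. Whether these were doublets, capillary fragments or single cells was not tested. All 522 nuclei left out count among the other nuclei throughout.

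Smooth muscle was close to absent among the nuclei that met the rule. The sum of Acta2, Tagln and Myh11, the actin, the actin-binding protein and the myosin heavy chain of smooth muscle, was 0 in 173 of the 184 nuclei, 1 in 5 and at least 2 in 6. Of those 6 nuclei, 4 were from wild-type replicate 2 and 2 from heterozygous replicate 1. A nucleus of heterozygous replicate 1 had Acta2 at 4, Tagln at 8, Myh11 at 9, Cnn1 at 3 and Myl9 at 3, and Vtn, Atp13a5 and Kcnj8 at 0. It was the only one of the 6 with Cnn1, and with a marker sum of 5 it was not among the 87.

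The other 5 nuclei held fewer contractile transcripts. One from wild-type replicate 2 had Myh11 at 5 beside Vtn at 8, Atp13a5 at 23 and Kcnj8 at 6, which are pericyte genes. Between the 6 nuclei and the 173 at 0, the genes with the largest differences among those higher in the 6 were the 3 of the split itself, then Tinagl1, Cnn1 and Slc12a8, each from 1 nucleus. Genes lower in the 6 nuclei, such as Ahcyl1, Rps21, Prkd1 and Gja1, were at 0 in all 6. Among all 48834 nuclei, 133 had a sum of at least 2 for the 3 contractile genes, and 108 of them had a marker sum below 4. The share of such nuclei among those that met the rule averaged 4.30% ± 7.45 (SD, n = 3) in wild type and 2.15% ± 3.72 (n = 3) in heterozygous libraries (exact permutation test, p = 1). It was 0 in 4 of the 6 libraries.

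Long noncoding RNAs, channel subunits, transporters and matrix genes were among those that most marked the nuclei. Among genes with a mean of at least 0.3 over the 184 nuclei, the 25 with the highest ratio to all other nuclei included Carmn, a long noncoding RNA of contractile and mural cells, at 72.9 times, and Tbx3os1, an antisense transcript, at 63.2 times. Kcnj8, the pore subunit of the ATP-sensitive potassium channel, stood at 55.6 times, and Abcc9 at 48.1 times. Vtn, the matrix protein vitronectin, stood at 45.7 times and Atp13a5, a transport ATPase, at 41.7 times. These ratios include the 97 nuclei with the lower marker sum, and the ratios of the 87 were larger, at 140 for Carmn, 109 for Kcnj8 and 91.6 for Vtn.

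Among the 87 nuclei, Vtn averaged 34.0, 9.83 and 17.7 per nucleus in the wild-type and 13.4, 5.75 and 12.1 in the heterozygous libraries. Atp13a5 averaged 7.83, 5.67 and 12.1, and 8.93, 10.3 and 13. Kcnj8 averaged 1.42, 1.58 and 1.47, and 0.714, 0.250 and 1.30. Every one of these library values lay above the highest value of the same gene in any library of endothelial-rule or other nuclei. Vtn was detected in 77 of the 87 nuclei, Atp13a5 in 78 and Kcnj8 in 40, against 9, 27 and 5 of the 97. In wild-type replicate 1 a single nucleus had a sum of 275 over the 12 pericyte genes, and the rest had at most 46. Its part in the Vtn mean of 34.0 was not tested.

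Transporters were among the rest of the 25 genes. Slc38a11, a transporter of the amino acid carrier family, averaged 2.75, 1.75 and 3.00 in the wild-type and 3.00, 3.08 and 3.35 in the heterozygous libraries, and was detected in 61 of the 87 nuclei. Slc6a20a, a proline transporter, averaged 3.34 in the 87 nuclei and 3.63 in nuclei of a fibroblast rule, against 0.0601 in other nuclei. Slc16a12, of the monocarboxylate transporter family, averaged 1.01 against 1.63 in the fibroblast rule. Of these transporters, only Slc38a11 was near 0 in fibroblast-rule nuclei, at 0.0333.

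Matrix and adhesion genes among the 25 were Lamc3 (a laminin chain), Egflam (a dystroglycan ligand), Nid1 (nidogen) and Itga1 (an integrin chain for collagen and laminin). Itga1 averaged 3.13 in the 87 nuclei and 1.58 in the 282 nuclei of the endothelial rule. Lamc3 and Nid1 averaged higher in fibroblast-rule nuclei, at 1.23 and 1.33 against 0.851 and 0.782 in the 87. Egflam and Itga1 averaged lower there, at 0.500 and 1.12 against 2.23 and 3.13. Tbx2 is a T-box transcription factor, and Tbx3os1 is transcribed from the opposite strand of Tbx3. Whether the counting used strand is not given in the sources used here, so reads of Tbx3os1 and Tbx3 may not be separable. The remaining names were Pla2r1, Morrbid, Pdgfrb, Ndufa4l2, Higd1b, C1qtnf7, Myl9, Rbpms, Ano1, Ednra and Gm30624. Of these, Gm30624 and C1qtnf7 averaged higher in fibroblast-rule nuclei, at 3.30 and 0.917 against 0.632 and 0.655 in the 87. Rbpms averaged 2.16 in the 87 nuclei, 1.73 in fibroblast-rule and 1.13 in endothelial-rule nuclei.

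The pericyte genes were found in the same nuclei. Atp13a5 was detected in 74 of the 77 nuclei with Vtn. Kcnj8 was detected in 40 nuclei, all of which had Vtn, and Slc6a20a in 58, all of which had Atp13a5. Its channel partner Abcc9 was detected in 34 of the 40 nuclei with Kcnj8 (85.0%) and in 57.4% of those without. Abcc9 is a gene of the rule, and nuclei with more detected genes give more joint detections, so these counts are descriptive.

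**Figure D3:**
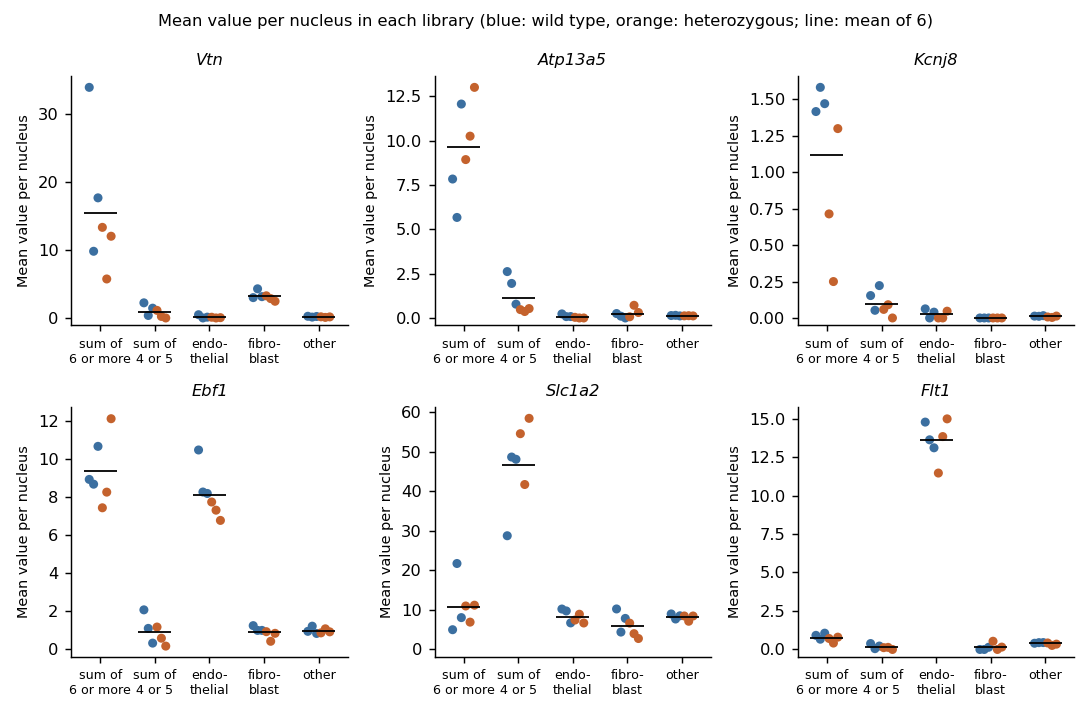
Mean value per nucleus (y axis) of selected genes in each library (points, blue for wild type and orange for heterozygous) in 5 classes of nuclei (x axis), with a line at the mean of 6 libraries. Vtn stood between 5.75 and 34.0 in nuclei with a marker sum of at least 6 and at or below 2.23 in those with a sum of 4 or 5, while Slc1a2 was higher in the latter.

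The windows before the start sites of 4 of these genes are shown because Vtn, Kcnj8 and Abcc9 were found in the same nuclei and Ano1 had the smallest genotype p-value below. Each is the 250 bases before the RefSeq start in GRCm38.p6, printed 5′ to 3′ on the gene's strand, at chr11:78498870-78499119 (+ strand), chr6:142571615-142571864 (− strand), chr6:142702275-142702524 (− strand) and chr7:144738574-144738823 (− strand). Capitals mark the motif TGGGAA or its reverse complement TTCCCA, the core bound by RBPJ, the DNA-binding partner of Notch receptors.
Vtn: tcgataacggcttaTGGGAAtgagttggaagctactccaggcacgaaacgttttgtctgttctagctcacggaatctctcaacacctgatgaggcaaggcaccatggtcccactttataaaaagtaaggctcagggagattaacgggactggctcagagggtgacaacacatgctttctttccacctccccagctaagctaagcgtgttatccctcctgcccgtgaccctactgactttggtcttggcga
Kcnj8: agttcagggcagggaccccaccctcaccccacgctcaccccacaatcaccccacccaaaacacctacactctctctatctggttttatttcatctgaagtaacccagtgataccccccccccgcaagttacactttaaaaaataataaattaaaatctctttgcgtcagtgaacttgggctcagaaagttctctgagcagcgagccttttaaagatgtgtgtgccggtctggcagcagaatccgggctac
Abcc9: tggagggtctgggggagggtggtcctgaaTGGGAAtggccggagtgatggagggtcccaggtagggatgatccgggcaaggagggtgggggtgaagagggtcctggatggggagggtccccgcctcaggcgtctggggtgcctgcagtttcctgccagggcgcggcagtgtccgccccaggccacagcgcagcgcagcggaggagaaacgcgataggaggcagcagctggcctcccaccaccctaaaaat
Ano1: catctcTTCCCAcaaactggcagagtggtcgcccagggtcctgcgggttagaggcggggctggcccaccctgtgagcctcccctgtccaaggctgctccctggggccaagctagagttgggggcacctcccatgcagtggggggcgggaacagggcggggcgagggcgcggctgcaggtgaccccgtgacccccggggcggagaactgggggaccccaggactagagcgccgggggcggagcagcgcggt
The starts of Kcnj8 and Abcc9 lie 130.7 kb apart on chromosome 6.

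Of the 25 genes, 18 matched a RefSeq window. The RBPJ letters were present in 5 of the 18 windows (27.8%), those of Abcc9, Vtn, Morrbid, Nid1 and Ano1, and in 21.5% of all 27025 windows. The palindrome of EBF factors (TCCC, any 2 bases, GGGA) was in 0 of the 18 and 0.788% of all windows. The forkhead motif TGTTTAC (reverse complement GTAAACA) was in 0 of the 18 and 3.09% of all, and the T-box motif AGGTGTGA (TCACACCT) in 0 and 1.14%. Both strands were searched. A match describes these letters in this window only.

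Several fixed lists of vascular genes were read in the 87 nuclei against other nuclei, counting each gene that averaged higher and each that was over 2-fold higher. The same share over all genes was not computed, so these counts have no background and are descriptive. Genes of the rule are counted where a list holds them. Among 28 genes of the basement membrane and its integrins, 24 were higher and 20 over 2-fold higher. Lamc1, a laminin chain, averaged 2.23 against 0.439 in other nuclei and 0.372 in endothelial-rule nuclei, and Col4a1, a chain of the collagen of basement membranes, 1.18 against 0.174 and 0.734. Dmd, the dystrophin gene, averaged 8.63 against 4.43 and 2.56. Fn1, fibronectin, ran the other way, at 0.0230 against 1.32 in endothelial-rule nuclei.

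Among 17 transcription factors linked to mural cells, 13 were higher in the 87 nuclei than in other nuclei and 12 over 2-fold higher. Ebf1 averaged 9.62 in the 87 nuclei, 8.13 in endothelial-rule nuclei, 0.897 in the 97 nuclei of lower marker sum and 0.981 in other nuclei. The library means of Ebf1 ran from 7.43 to 12.1 in the 87 nuclei. Tbx18, a mural and fibroblast factor, averaged 0.276 against 1.40 in fibroblast-rule nuclei, and Myocd, the coactivator of the smooth muscle programme, was not detected.

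Ligands and receptors of the PDGF and Notch pathways were also read. Of 6 PDGF genes 1 was higher in the 87 nuclei than in other nuclei, and over 2-fold, and of 17 Notch genes 11 were higher and 8 over 2-fold higher. Pdgfb, the ligand that recruits pericytes, averaged 0.0115 in the 87 nuclei and 0.688 in endothelial-rule nuclei, and Pdgfd 0.103 and 2.71. Their receptor Pdgfrb averaged 3.51 and 0.0355. The Notch ligand Dll4 averaged 0 and 0.181, the receptor Notch3 2.90 and 0.0709, and Heyl, a Notch target, 0.368 in the 87 nuclei. The receptor Notch1 was present in both classes, at 0.609 and 0.440, and Notch4 averaged 0.0805 and 0.230. Notch3 and Pdgfrb are genes of the rule.

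Ion channels and the cyclic GMP pathway, which set the tone of mural cells, were also read. Of 41 calcium and potassium genes, 22 were higher in the 87 nuclei than in other nuclei and 12 over 2-fold higher. Cacna1c, the pore of an L-type calcium channel, averaged 9.03 in the 87 nuclei, 1.81 in the 97, 1.86 in endothelial-rule nuclei and 4.31 in other nuclei. Other channel genes averaged lower than in other nuclei, such as the potassium channels Kcnma1, at 2.45 against 4.96, and Kcnq5, at 2.86 against 9.27. Of 17 cyclic GMP genes, 11 were higher than in other nuclei and 9 over 2-fold higher, among them Prkg1, the cyclic GMP-dependent kinase, at 14.3 against 2.87, and Gucy1a2, a subunit of the nitric oxide receptor, at 4.49 against 1.57.

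Receptors for vasoactive signals were sparse. Of 35 such genes in the table, 13 were not seen in the 87 nuclei, 12 averaged higher than in other nuclei and 7 were over 2-fold higher. Ednra, the endothelin receptor of mural cells, averaged 0.839 and was detected in 31 of the 87 nuclei, against 0.00709 in endothelial-rule nuclei. Ednrb and S1pr1, which astrocytes also carry, averaged 1.10 and 1.45 in the 97 nuclei and 0.253 and 0.287 in the 87.

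Among 26 membrane transporters, 11 were higher in the 87 nuclei, all of them over 2-fold. Atp13a5 and Slc6a20a, described above, were among them. Slc2a1, the glucose transporter of the barrier endothelium, averaged 0.0805 against 2.32 in endothelial-rule nuclei.

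Of 21 contractile genes 16 were higher than in other nuclei and 13 over 2-fold higher, of 27 genes of TGF-beta and BMP signalling 10 and 4, of 23 glucocorticoid-responsive genes 10 and 2, and of 15 immediate early genes 5 and 1. Bmpr1b, a BMP receptor, averaged 2.61 in the 97 nuclei and 0.391 in the 87. Of that signalling list, the ligand Tgfb2 and the receptors Tgfbr2 and Eng averaged higher in endothelial-rule nuclei, at 0.404, 0.621 and 1.47 against 0.264, 0.207 and 0.322 in the 87.

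Celsr3, the gene changed in the heterozygous mice, was near its floor in these nuclei. Over all 184 its summed value was 3, from 1 nucleus each of wild-type replicates 1 and 2 and heterozygous replicate 2. It thus fell below the minimum summed value of 10 per library and was left out of the main test there. In all nuclei it averaged 0.0747, 0.1 and 0.108 in wild-type and 0.0617, 0.0692 and 0.0643 in heterozygous libraries. The groups did not overlap, with a heterozygous mean at 69.1% of that of wild type. Its relative Celsr2 was detected in 8 of the 87 nuclei and Celsr1 in 1.

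The share of nuclei that met the rule did not differ detectably between genotypes. Wild-type libraries had shares of 0.323%, 0.393% and 0.322%, heterozygous libraries 0.393%, 0.407% and 0.417%. Wild-type replicate 2 and heterozygous replicate 1 were level, and the other wild-type libraries were lower. The means were 0.346% ± 0.0407 (SD, n = 3) and 0.405% ± 0.0120 (n = 3; two-sided exact permutation test, p = 0.2, where 0.1 is the smallest possible).

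For nuclei with a marker sum of at least 6 the groups lay closer. Wild-type libraries held 0.173% ± 0.0328 of such nuclei and heterozygous libraries 0.182% ± 0.0411 (SD, n = 3 each; exact permutation test, p = 0.7). They made up 50.7% ± 13.5 of the nuclei that met the rule in wild type and 44.8% ± 9.38 in heterozygous libraries (n = 3 each; exact permutation test, p = 0.6). At a marker sum of at least 3 the groups did not overlap, at 0.764% ± 0.0512 in wild type and 0.900% ± 0.114 in heterozygous libraries (n = 3 each; exact permutation test, p = 0.1, the smallest possible), and 203 of the 223 nuclei this adds had at least 3 of the 7 astrocyte genes. Relative to mural plus endothelial nuclei, the nuclei that met the rule were 37.6% ± 5.81 and 41.5% ± 5.38 (n = 3 each; exact permutation test, p = 0.5).

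Gene expression was then compared between genotypes, heterozygous minus wild type, on log2 of the mean value per nucleus plus 0.01, a scale that understates the difference of low genes. The test was limma with Benjamini-Hochberg adjustment over all genes tested, and a gene was called at an adjusted p under 0.05. Among the 87 nuclei of higher marker sum, 0 of 1517 genes were called (0.0%), 87 (5.74%) had an unadjusted p under 0.05, and the smallest adjusted p was 0.332. The count under 0.05 was 45 of 1568 without heterozygous replicate 2 and 120 of 1562 without wild-type replicate 2. Among all 184 nuclei, 0 of 3410 genes were called (0.0%), 180 (5.28%) had an unadjusted p under 0.05, and the smallest adjusted p was 0.884. That count was 92 of 3307 without heterozygous replicate 2 and 399 of 3388 without wild-type replicate 2. Groups did not overlap for 9.77% of the 3410 genes. Endothelial-rule nuclei likewise had 0 of 4578 called (0.0%) and 254 (5.55%) with an unadjusted p under 0.05. With all 6 libraries the shares under 0.05 lie close to 5%, and the genes below are named with their values by the smallest p-values.

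Ano1, a calcium-activated chloride channel of pericytes and smooth muscle, had the smallest p in the 87 nuclei. The wild-type libraries averaged 0.750, 0.500 and 1.00, the heterozygous ones 2.36, 2.00 and 2.85. The lowest heterozygous library lay above the highest wild-type one. The difference was 1.71 ± 0.36 (SE) on the log2 scale (limma, adjusted p = 0.332), and it lay between 1.45 and 1.94 over 11 alternative settings, with adjusted p from 0.214 to 0.661. Groups that did not overlap were seen for 155 of the 1517 genes (10.2%).

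The genotype difference of Ano1 was not shown to differ from that in other nuclei. There Ano1 averaged 0.0213, 0.0191 and 0.0197 in wild-type and 0.0197, 0.0244 and 0.139 in heterozygous libraries, where heterozygous replicate 3 stood apart. The difference of the genotype effect between the 87 nuclei and other nuclei was 0.87 ± 0.59 (limma, adjusted p = 0.911). Other nuclei include the 522 with a marker sum of at least 6 that broke a limit, and their part in this was not tested. Over all 184 nuclei the difference of Ano1 was 1.31 ± 0.38 (adjusted p = 0.884).

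Other genes with higher values in heterozygous libraries were few among the 20 smallest p-values. Sppl3, an intramembrane protease of the Golgi, averaged 0.333, 0.167 and 0.294 in wild-type and 1.07, 1.33 and 1.40 in heterozygous libraries, with no overlap. The difference was 2.26 ± 0.76 (limma, adjusted p = 0.803). Stag1, a cohesin subunit, averaged 1.42, 1.58 and 2.18 against 4.14, 4.17 and 2.80, again with no overlap (1.10 ± 0.32, adjusted p = 0.803). Cadm1, an adhesion molecule, and Ppp1r12b, a subunit of myosin phosphatase, had differences of 1.00 and 1.04.

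The remaining 15 of the 20 had lower values in heterozygous libraries. Rpl8, a ribosomal protein, averaged 1.92, 1.58 and 1.65 in wild-type and 0.571, 0.500 and 0.900 in heterozygous libraries, with no overlap (−1.41 ± 0.38, limma, adjusted p = 0.803). Tmsb4x, an actin-binding peptide, averaged 9.50, 7.17 and 11.8 against 6.07, 3.75 and 4.75, also without overlap (−0.96 ± 0.31, limma, adjusted p = 0.803). Atp5h and Cox7b, of oxidative phosphorylation, had differences of −1.38 and −1.15. The others were Myl6, Tuba1a, Dbi, Rps12, Cd63, Rpl19, Rpl30, Mt1, Laptm4a, Rps14 and Rpl11, between −1.02 and −1.56, and of the 20 only Mt1 had overlapping groups.

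Ribosomal protein genes were read as a list after these values were seen, and their closely related copies can split reads. Of 62 tested in the 87 nuclei, 58 had lower values in heterozygous libraries, and 0 were called. Of the 62, 13 were lower with an unadjusted p under 0.05, where 3.49% of all genes tested were. Their median difference was −0.73, against 0.09 over all genes tested. Their values summed to 169, 93.9 and 93.8 per nucleus in wild-type and 78.4, 53.6 and 97.1 in heterozygous libraries. Wild-type replicate 1 was the highest, heterozygous replicate 2 the lowest, and the groups overlapped. Without wild-type replicate 1, 43 of 56 were lower, 6 with an unadjusted p under 0.05, with a median of −0.51. Without heterozygous replicate 2, 55 of 63 were lower, 4 of them under 0.05, with a median of −0.44. The count under 0.05 was 21 without wild-type replicate 2 and 22 without heterozygous replicate 3. Endothelial-rule nuclei, from the same libraries, had 66 of 77 lower, with a median of −0.25 against −0.01 over all genes. Of these 77, 10 were lower with an unadjusted p under 0.05, where 3.32% of all genes tested there were.

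**Figure D4:**
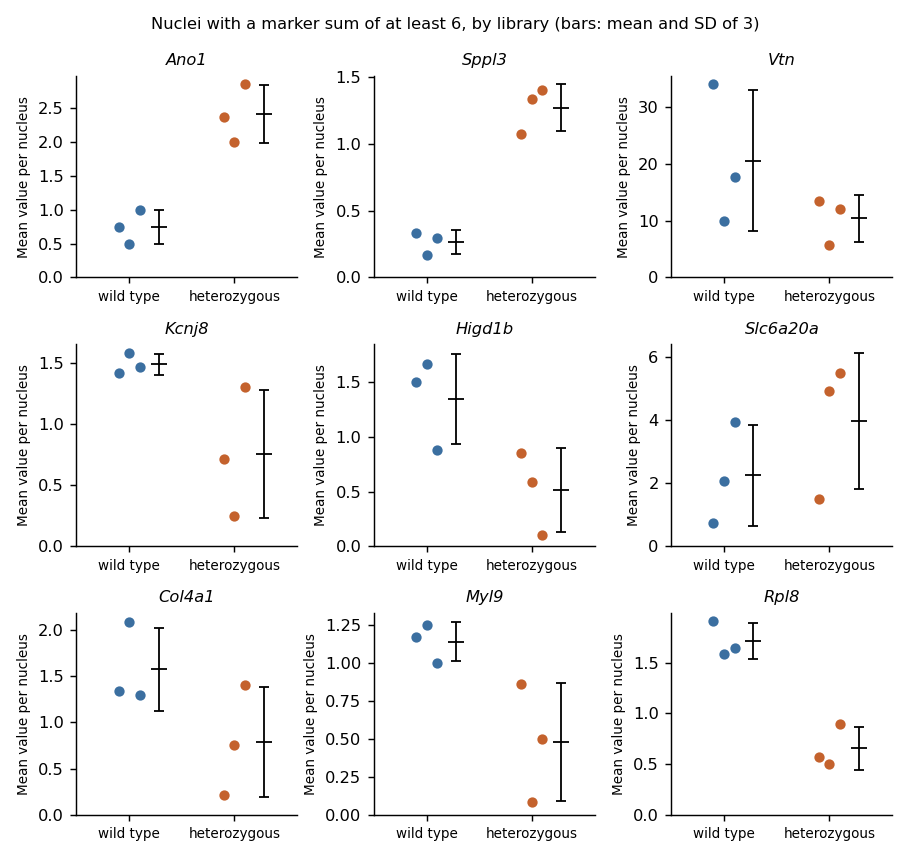
Mean value per nucleus (y axis) of 9 genes in the nuclei with a marker sum of at least 6, by genotype (x axis), 1 point per library, with the mean and SD of 3 libraries. Ano1 and Sppl3 had higher values in all heterozygous libraries, while Vtn, Slc6a20a and Col4a1 overlapped between the genotypes.

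The pericyte list was split between the directions. Of 10 of its 12 genes tested in the 87 nuclei, 6 had lower and 4 higher values, 4 had an unadjusted p under 0.05 (all lower), and 0 were called. The median difference was −0.60, against 0.09 over all genes tested, of which 3.49% were lower with an unadjusted p under 0.05. Of all genes tested, 59.6% had higher values in heterozygous libraries. Without heterozygous replicate 2, 5 of the list were lower and 5 higher, 2 of them lower with an unadjusted p under 0.05, and the median was 0.031. At a summed value of at least 30 per library, 1 of 3 was lower and the median was 0.38.

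Kcnj8, whose library values are given above, was lower in all 3 heterozygous libraries, without overlap (−1.26 ± 0.51, limma, adjusted p = 0.803). Higd1b, a mitochondrial protein of pericytes, averaged 1.50, 1.67 and 0.882 against 0.857, 0.583 and 0.1, also without overlap (−1.77 ± 0.72). It was detected in only 11 of the 87 nuclei. Vtn differed by −0.89 ± 0.41, with wild-type replicate 2 below heterozygous replicates 1 and 3. Its mean in wild-type replicate 1 includes the nucleus with a pericyte list sum of 275. Each of these adjusted p-values was 0.803.

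The other pericyte genes gave no such difference. Atp13a5 differed by 0.38 and Slc6a20a by 0.90, each with overlapping groups. Vtn and Kcnj8 also varied between libraries in other nuclei. Those include the 522 nuclei with a marker sum of at least 6 that broke a limit. In other nuclei Vtn was lowest in heterozygous replicate 2, at 0.0834 against 0.128 to 0.249 in the other 5 libraries, and Kcnj8 was lowest there too, at 0.00360 against 0.00674 to 0.0159. The part of transcripts outside these cells in the difference was not tested. The difference of the genotype effect between the 87 nuclei and other nuclei was −0.38 ± 0.44 for Vtn and −0.83 ± 0.50 for Kcnj8 (limma, adjusted p = 0.976 and 0.911).

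Matrix and contractile genes had values in both directions. Col4a1 averaged 1.33, 2.08 and 1.29 against 0.214, 0.750 and 1.40, with overlap (−1.31 ± 0.55, limma, adjusted p = 0.803). Myl9, a myosin light chain, averaged 1.17, 1.25 and 1.00 against 0.857, 0.0833 and 0.500, without overlap (−1.73 ± 0.81, adjusted p = 0.803). Ppp1r12b, of the same contractile list, ran the other way (1.04 ± 0.37, adjusted p = 0.803), and 3 of the 6 contractile genes tested were higher and 3 lower. Of 15 basement membrane and integrin genes tested, 10 were lower and 5 higher, with a median of −0.18 against 0.09 over all genes tested. Of the 15, 2 were lower at an unadjusted p under 0.05 (Col4a1 and Sparcl1, a secreted matricellular protein), where 3.49% of all genes tested were. Of 26 calcium and potassium genes, 14 were higher and 12 lower with a median of 0.11. At an unadjusted p under 0.05, 2 of the 26 were higher and 2 lower. Of 11 cyclic GMP genes 7 were higher and 4 lower with a median of 0.22, and 1 was higher at that level. In the contractile list 1 was higher and 1 lower at that level, and 0 membrane transporters and 0 transcription factors reached it. Over all genes tested 5.74% did, in either direction. The 10 membrane transporters tested had a median of 0.37, the 6 contractile genes one of −0.25 and the 6 transcription factors one of 0.07. No gene of these lists was called. The summed astrocyte list in the 87 nuclei was 8.33, 38.3 and 11.6 in wild-type and 15.6, 13.1 and 18.7 in heterozygous libraries, and its part in these values was not tested.

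**Figure D5:**
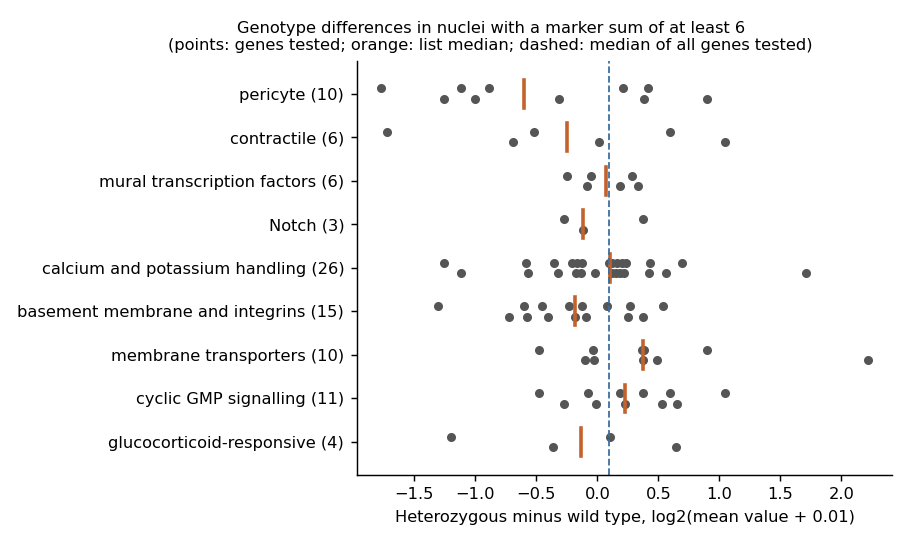
Difference between genotypes (x axis, heterozygous minus wild type in log2 of the mean value plus 0.01) of each gene tested in 9 lists (y axis, number tested in brackets) in nuclei with a marker sum of at least 6, with the list median in orange and the median of all genes tested dashed. The pericyte list had a median of −0.60 and the calcium and potassium list one of 0.11, beside 0.09 for all genes.

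Over all 184 nuclei, several of the smallest p-values belonged to genes of the nuclei with astrocyte genes. Aqp4 averaged 0.360, 1.03 and 0.346 in wild-type and 1.35, 1.47 and 1.46 in heterozygous libraries, without overlap (1.48 ± 0.39, limma, adjusted p = 0.884). Cemip averaged 0, 0.0645 and 0 against 0.419, 1.59 and 1.22 (5.60 ± 1.86, adjusted p = 0.884), and it was all but absent from the 87 nuclei. Mertk, a phagocytic receptor of astrocytes, differed by 0.99 over the 184 nuclei, and by 1.26 ± 0.53 in the 87 (limma, adjusted p = 0.803). The astrocyte list summed to 27.7, 63.8 and 33.7 per nucleus in wild-type and 48.9, 52.9 and 51.6 in heterozygous libraries, and the part of this mixture in the values of Aqp4, Cemip and Mertk was not tested. Tprkb, a subunit of a transfer RNA-modifying complex, also averaged higher in the 97 nuclei than in the 87, at 1.04 against 0.333. It averaged 0.200, 0.516 and 0.192 in wild-type and 1.00, 0.735 and 1.30 in heterozygous libraries, without overlap (1.82 ± 0.44, limma, adjusted p = 0.884), and the part of the mixture in it was not tested either.

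Crip2, a LIM-domain protein of vessels, averaged 0.520, 0.581 and 0.654 against 0.161, 0.0882 and 0.189, without overlap (−1.98 ± 0.63, limma, adjusted p = 0.884). Of the pericyte list 9 of 10 genes had lower values, with a median of −0.72 against 0.08 over all genes. Of the 10, 4 were lower with an unadjusted p under 0.05, where 2.29% of all genes tested were. Without heterozygous replicate 2, 6 of the 10 were lower and the median was −0.13. With limits of 1, 1, 0 and 2 on the other cells' markers, 2 of the list were tested. Of these 1 was lower and 1 higher, and the median was 0.63.

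Whether a genotype difference was larger here than elsewhere was tested directly, and 0 genes were called in any of 4 tests with all 6 libraries. Against endothelial-rule nuclei, 0 of 3025 genes were called (0.0%; 5.69% with an unadjusted p under 0.05) for all 184 nuclei, and 0 of 1442 (0.0%; 4.58%) for the 87. Against all other nuclei, 0 of 3410 were called (0.0%; 3.99%) for the 184, and 0 of 1517 (0.0%; 4.55%) for the 87. These other nuclei hold the 522 with a marker sum of at least 6 that broke a limit. Without wild-type replicate 2, the count under 0.05 against other nuclei for the 184 was 310 of 3388, up from 136, and 2 were called. Sppl3 had the smallest p of the 87 nuclei in both, with differences of 2.28 ± 0.47 against endothelial-rule nuclei (limma, adjusted p = 0.838) and 2.17 ± 0.34 against other nuclei (adjusted p = 0.335). In the 184 nuclei against other nuclei, Cemip differed by 5.38 ± 0.85 and Crip2 by −1.99 ± 0.33 (limma, adjusted p = 0.258 each).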

How the data were processed

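Nuclei of 3 wild-type and 3 heterozygous striata were read from 1 deposited table of 24841 genes and 48834 nuclei. Its values were treated as a score: UMI values that the authors deposited after depth correction, rounded to whole numbers, as read from the values (the total per nucleus had a coefficient of variation of 10.7%). Cell Ranger, Seurat 4.1 and the mouse build mm10 (GRCm38) are named per the submitters' processing notes, without their settings. Original depth is unknown, so no counting intervals were given. The members and gene lists were chosen with earlier results of these data known. The tests had been planned for raw counts or averaged values, and the score called for the latter. For each library the mean value per nucleus was put on a log2 scale after adding 0.01 and compared with limma 3.58.1 in R 4.3.3 (trended empirical Bayes, Benjamini-Hochberg), heterozygous against wild type, no covariate, on genes whose summed value averaged at least 10 per library. The difference of the genotype effect was tested on the per-library difference of log2 values between classes. Other nuclei were all those that did not meet the mural rule, among them nuclei left out only by a limit. Endothelial and fibroblast rules took nuclei whose 3 or 2 marker genes, as named in the rule, summed to at least 4, with the mural marker sum at most 3 and the other limits kept. Shares were compared with exact permutation tests (scipy 1.17.1). Genes named were Celsr3 and the rule's genes, the 20 smallest p-values where few were called, in each list the 4 of highest mean and those with an unadjusted p under 0.05, the 25 of highest ratio to other nuclei, the 12 of largest difference each way between contractile groups, and the 5 of smallest p in each test of a difference between classes. Ebf1, Cemip, Gli2, Htra1 and further members of the lists were named after their values were seen. The limma script was tested on simulated data. Some genes counted in the lists are not reported here by name.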

Additional observations from a re-analysis of the deposited data

How the results depend on the processing

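With 12 to 20 nuclei of higher marker sum per library, values rest on few nuclei, and a difference that missed the threshold is not shown to be absent. The settings for these 87 nuclei, and their division from the 184, were chosen after seeing the data. Genes called among the 184 nuclei were 0, but 1 at a pseudocount of 0.1 (Cemip, 3.15, limma adjusted p = 0.0216), 1 with no filter on low values (Cemip, 5.60, adjusted p = 2.62e-07), 1 with the replicate block (Vtn, −1.06, adjusted p = 0.0214) and 0 to 1 with a library left out (Aqp4, 1.99, adjusted p = 0.0327 without wild-type replicate 2). Over all settings the adjusted p ran from 0.0214 to 0.999 for Vtn, from 2.62e-07 to 0.999 for Cemip and from 0.0327 to 0.999 for Aqp4. In the difference from other nuclei, 1 gene was called with the replicate block (Cemip, adjusted p = 0.0317) and 0 to 2 with a library left out (2 without wild-type replicate 2, among them Cemip, 6.33, adjusted p = 0.0353), with a range of 0.0317 to 0.932 for Cemip. The labels do not state that replicate numbers pair the libraries. Same-numbered libraries had correlations of 0.10, 0.21 and −0.02 in their deviations among the 184 nuclei. Differently numbered ones had correlations from −0.17 to 0.078. So few values cannot decide whether the libraries were paired, and the block is given only here. With limits of 1, 1, 0 and 2 on the other cells' markers, Vtn differed by 1.82 and the pericyte list median was 0.63 (2 genes tested). In the 87 nuclei that median was 0.38 at a summed value of at least 30 (3 genes) and lay between −0.77 and 0.031 with a library left out (0.031 without heterozygous replicate 2). Genes with an unadjusted p under 0.05 among the 184 nuclei numbered 180 of 3410 tested as reported. With a library left out they ranged from 92 of 3307 without heterozygous replicate 2 to 399 of 3388 without wild-type replicate 2. They numbered 283 of 3410 with the block, 261 of 3410 with array weights and 311 of 6386 at a marker sum of at least 3. With no filter on low values they numbered 773 of 17153. At a summed value of at least 30 they numbered 49 of 1092, and with limits of 1, 1, 0 and 2 they numbered 17 of 896. Among the 87 nuclei they numbered 87 of 1517 as reported, and 25 of 424 at a summed value of at least 30. With a library left out they ranged there from 45 of 1568 without heterozygous replicate 2 to 120 of 1562 without wild-type replicate 2. Size factors moved the share of these that were higher from 56.7% to 35.7% among the 184 nuclei and from 39.1% to 19.0% among the 87; scaling by totals gave 52.3% and 29.1%. The heterozygous minus wild-type difference in the share of nuclei with contractile genes was −2.15 percentage points, from −4.30 to 2.15 with a library left out (2.15 without wild-type replicate 2) and 1.08 at a contractile sum of at least 4. That in the share with a marker sum of at least 6 was −5.86, from −11.9 to 1.48 (1.48 without wild-type replicate 3). The causes of these shifts were not tested. The other alternatives kept direction and side of the threshold in 459 checks for the 184 nuclei and 333 for the 87. A check here is 1 gene, count or share under 1 setting, so the same gene is counted many times. As 0 genes were called as reported, keeping the side of the threshold is a weak check.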
